A study of Mus musculus with 12 samples.

Results

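Enteroendocrine cells are scattered hormone-secreting cells of the intestinal epithelium, and 10 of their genes are described here in the duodenum of mice given an agonist antibody. The genes were the hormone genes Sst, Cck, Sct, Gip, Ghrl, Gcg and Pyy, the granin genes Chga and Chgb, and Neurod1, a transcription factor gene of the lineage. They were chosen by name, as the 10 rows of the count tables that carry these symbols, out of 23329 rows in all. RNA was sequenced from the duodenum and the spleen of wild type mice of the inbred strain C57BL/6J, aged 2 months. The mice had been given AC H6, an antibody that activates the lymphotoxin beta receptor, or, as the control, an isotype antibody without that target. Each mouse received 100 ul of a solution of 1 mg/ml, and the treatment lasted 24 h. The 4 groups were duodenum after AC H6, duodenum after isotype, spleen after AC H6 and spleen after isotype, with 3 libraries each. Whether the 3 libraries of each group stem from separate animals is not stated in the labels, so each p-value measures the spread between these libraries, which may be technical. The tissue labels name duodenum and spleen, although the extraction text speaks of brain.

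The hormones and granins are packed together into dense granules, and nutrients in the gut lumen trigger their release. Each hormone has its own task: secretin (Sct) makes the pancreas release bicarbonate, cholecystokinin (Cck) contracts the gall bladder, GIP (Gip) and GLP-1 (a product of Gcg) raise insulin release, peptide YY (Pyy) and ghrelin (Ghrl) act on appetite, and somatostatin (Sst) restrains the others. The cells arise from crypt progenitors through a short burst of Neurog3, which is followed by Neurod1. Several of the products are not confined to these cells: Sst and the granins are also made by enteric neurons, Ghrl, Sst and Gast by endocrine cells of the stomach, and Gcg, Sst and Pyy by pancreatic islets. In bulk tissue, fewer cells of a type and less RNA per cell cannot be told apart.

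Library totals ran from 24811659 to 43851006 counts in duodenum and from 13874091 to 45847467 counts in spleen. The level of pancreas and stomach genes varied widely between the duodenum libraries. The summed level of 20 pancreatic acinar genes was 92.8, 3106 and 36705 CPM (counts scaled by library size) in the AC H6 libraries 1, 2 and 3, against 82.1, 9221 and 215 CPM in the isotype libraries. Ins2, which encodes insulin, had 0, 0 and 15 counts in the AC H6 libraries, against 0, 162 and 0 counts in the isotype libraries. The summed level of 12 stomach and Brunner gland genes was 24587, 28157 and 16963 CPM in the AC H6 libraries, against 9504, 17501 and 15894 CPM in the isotype libraries. Within it, Gkn1 of the gastric surface had 751, 687 and 158 CPM after AC H6, against 1.32, 354 and 218 CPM after isotype. The acinar genes of AC H6 library 3 and isotype library 2, and the near absence of Gkn1 in isotype library 1, set these libraries apart. Atp4a of acid-secreting parietal cells was near 0 throughout, at 0.0946 to 0.211 CPM after AC H6 and 0.0586 to 0.351 CPM after isotype.

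The sequences before the start of Chga, Sct, Pyy and Ghrl are shown because these members were called higher after AC H6. Chgb, the fifth member called, is shown by a shorter stretch further on, because its window lies inside the gene as GENCODE places it. Each is the 250 bases before the RefSeq start, for Chga (chr12:102554691-102554940, plus strand), Sct (chr7:141279134-141279383, minus strand), Pyy (chr11:102107833-102108082, minus strand) and Ghrl (chr6:113719912-113720161, minus strand), from RefSeq on GRCm38.p6, written 5′ to 3′. Capitals mark the core of a cAMP response element (TGACG, or CGTCA on the other strand), an E-box of the form bound by NeuroD1 (CAGATG, or CATCTG) and a TATA box (TATAAA, or TTTATA).
Chga: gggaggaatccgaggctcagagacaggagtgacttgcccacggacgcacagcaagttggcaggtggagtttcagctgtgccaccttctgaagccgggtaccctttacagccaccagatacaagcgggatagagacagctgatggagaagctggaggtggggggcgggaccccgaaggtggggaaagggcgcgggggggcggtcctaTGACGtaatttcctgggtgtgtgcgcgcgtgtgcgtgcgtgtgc
Sct: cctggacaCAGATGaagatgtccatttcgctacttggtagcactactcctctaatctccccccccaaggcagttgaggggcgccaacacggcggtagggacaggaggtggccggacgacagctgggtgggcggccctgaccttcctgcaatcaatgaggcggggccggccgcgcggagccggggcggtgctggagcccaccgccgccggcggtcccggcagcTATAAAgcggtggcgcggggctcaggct
Pyy: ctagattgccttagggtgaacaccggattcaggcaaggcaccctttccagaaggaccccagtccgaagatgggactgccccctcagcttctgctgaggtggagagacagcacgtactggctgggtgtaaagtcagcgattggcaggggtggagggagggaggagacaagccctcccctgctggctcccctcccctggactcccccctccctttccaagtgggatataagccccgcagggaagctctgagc
Ghrl: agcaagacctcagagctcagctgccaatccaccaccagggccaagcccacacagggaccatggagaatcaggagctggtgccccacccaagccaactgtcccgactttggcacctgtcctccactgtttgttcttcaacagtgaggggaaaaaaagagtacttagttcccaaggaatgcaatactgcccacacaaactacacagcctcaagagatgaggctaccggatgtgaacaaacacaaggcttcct
The Pyy and Ghrl windows held none of these motifs, while Chga had 1 and Sct had 2. A further comparison shows 30 bases around the cAMP response element letters of the 4 members that had them, Chgb (chr2:132781559-132781588, plus strand), Sst (chr16:23890874-23890903, minus strand), Chga (chr12:102554884-102554913, plus strand) and Cck (chr9:121495725-121495754, minus strand), with the matching letters in capitals.
Chgb: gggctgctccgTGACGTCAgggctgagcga
Sst: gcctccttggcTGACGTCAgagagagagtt
Chga: gggggcggtcctaTGACGtaatttcctggg
Cck: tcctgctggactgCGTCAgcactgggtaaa
Positions are counted from the RefSeq start, which differs from the GENCODE start given with some genes below. The RefSeq start lies 364 bases inside the GENCODE gene for Chgb, 114 for Sst and 115 for Neurod1, so that 250, 114 and 115 bases of these windows lie within the gene as GENCODE gives it. The whole palindrome TGACGTCA stood in the windows of Chgb (first base at -72 from the RefSeq start) and Sst (-48), and 1.55% of 32851 RefSeq windows of the same length hold it on either strand. The core TGACG alone stood in the windows of Chga (-44) and Cck (-47), and 17.8% of all windows hold it, the palindromes included. CAGATG was present in the windows of Sct, Cck and Gcg (14.4% of all windows), and TATAAA in those of Sct and Gcg (12.4% of all windows). A loose NF-kB pattern, GGG and CC with any 5 bases between them, was present in the windows of 9 of the 10 members, all but Gcg, and in 45.8% of all windows. Of the 4 genes with cAMP response element letters, Chgb and Chga were called higher in the tests that follow, while Sst and Cck were not. A match of letters is a description of the sequence and does not show that a factor bound there.

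All 10 members had enough counts in duodenum to be tested, and 5 of them, Chgb, Chga, Pyy, Sct and Ghrl, were higher after AC H6 at an adjusted p under 0.05. None was called lower by edgeR or by DESeq2, nor at an unadjusted p under 0.05. The background in this tissue was wide: 34.6% of the 15667 genes tested were called, 18.5% as higher and 16.1% as lower, so 5 of 10 members called is to be read against 34.6% (and against 18.5% for higher alone). The log2 fold changes of the members were all above 0, from 0.11 to 0.54 with a median of 0.25. Over all genes tested, 51.2% of log2 fold changes were above 0, and the median was 0.01. The levels of 8 members did not overlap between the groups, all of them higher after AC H6, against 25.7% of all genes tested. At an unadjusted p under 0.05, 6 members were higher, against 23.7% of all genes tested.

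**Figure D1:**
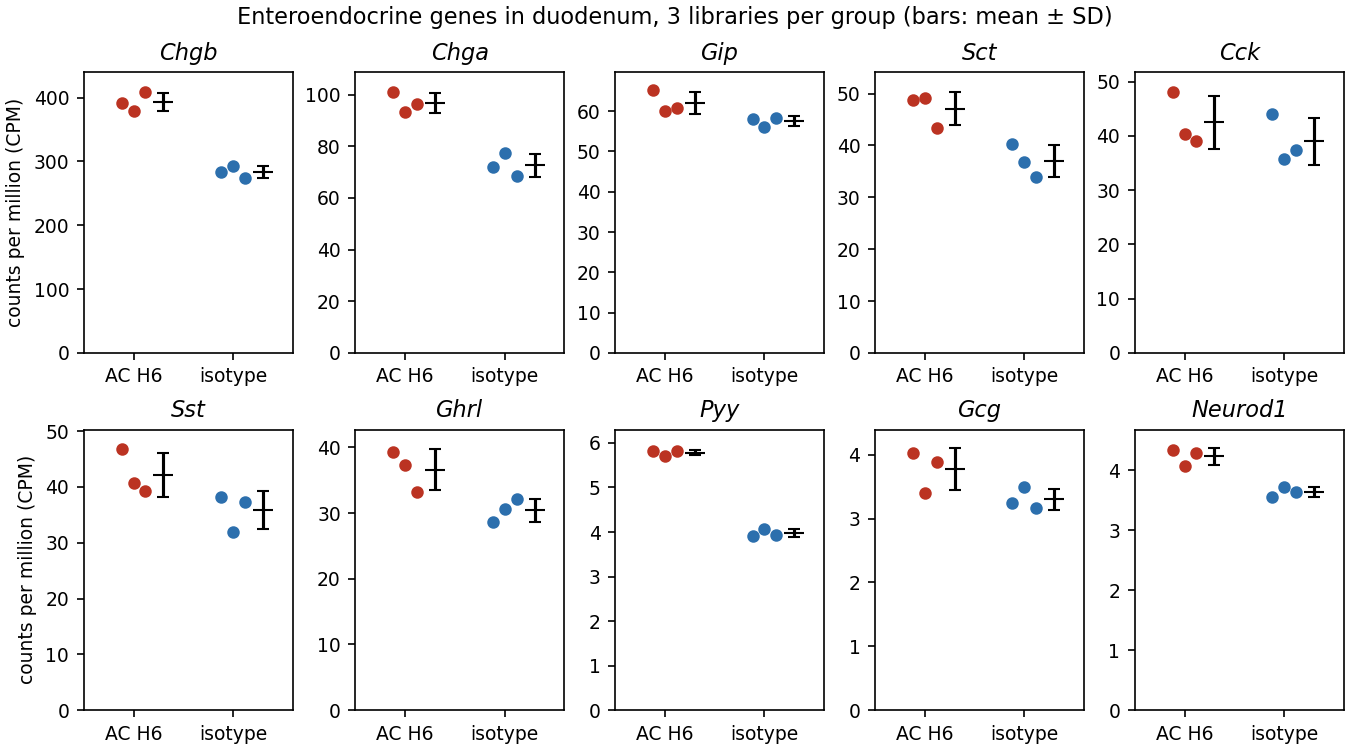
Level of each of the 10 enteroendocrine genes in the duodenum libraries in CPM (each panel has its own axis from 0), AC H6 in red on the left and isotype in blue on the right; each point is 1 library and the black bars are the mean ± SD of 3 libraries. The groups lie apart in 8 panels and overlap for Cck and Gcg; Chgb lies at 379 to 408 CPM after AC H6 and 274 to 294 CPM after isotype.

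Both granin genes were higher after AC H6. Chgb (chr2:132781278-132795079, plus strand), which encodes chromogranin B, a major acidic protein of the granule core, had 392, 379 and 408 CPM in the AC H6 libraries, against 283, 294 and 274 CPM in the isotype libraries. All AC H6 libraries lay above all isotype libraries, and the gap between the groups was larger than the spread within either. Chgb averaged 393 ± 14.5 CPM after AC H6 and 283 ± 9.99 CPM after isotype (SD, n = 3 each), a log2 fold change of 0.47 ± 0.06 (standard error), 1.39-fold, with an adjusted p of 6.77e-04 (quasi-likelihood test of edgeR, adjusted after Benjamini and Hochberg). Chga (chr12:102554969-102565028, plus strand), which encodes chromogranin A, had 101, 93.1 and 96.4 CPM after AC H6, against 72.0, 77.3 and 68.6 CPM after isotype. Again no isotype library reached an AC H6 library. The mean level of Chga was 96.8 ± 3.91 CPM after AC H6 and 72.7 ± 4.39 CPM after isotype, and its log2 fold change was 0.41 ± 0.07, with an adjusted p of 0.00254 by edgeR.

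Among the hormones, Pyy had the greatest fold change at a low level. Pyy (chr11:102106676-102107832, minus strand) is best known from the L cells of the distal gut, and it had 5.83, 5.71 and 5.81 CPM after AC H6, against 3.90, 4.08 and 3.94 CPM after isotype. These values rest on 226, 181 and 248 counts in the AC H6 libraries and on 89, 139 and 117 counts in the isotype libraries. The groups were far apart relative to their spread, and the log2 fold change of Pyy was 0.54 ± 0.10, or 1.45-fold, with an adjusted p of 0.00385 by edgeR. Sct (chr7:141278330-141279133, minus strand), the gene of secretin, had 48.7, 49.1 and 43.4 CPM after AC H6, against 40.2, 36.9 and 33.9 CPM after isotype. The lowest AC H6 library stood just above the highest isotype library. Sct rose by 0.35 ± 0.07 on the log2 scale, with an adjusted p of 0.00766 by edgeR.

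Ghrl (chr6:113716119-113719880, minus strand), which encodes ghrelin, was the call with the least margin. It had 39.3, 37.3 and 33.2 CPM after AC H6, against 28.6, 30.6 and 32.1 CPM after isotype. AC H6 library 3 and isotype library 3 nearly met, without overlap. The log2 fold change was 0.26 ± 0.07, with an adjusted p of 0.0218 by edgeR. The call was lost when isotype library 1 (adjusted p = 0.0674), AC H6 library 1 (0.0817) or AC H6 library 2 (0.0738) was left out. It was also lost with a stomach score as a covariate (0.0687). That score rests on Muc5ac, Tff1, Gkn1, Gkn2, Gif and Gast, only a part of the genes summed above. Isotype library 1, lowest in Ghrl, was also lowest in the summed stomach genes given above, and the part of gastric RNA in the Ghrl difference was not tested further. The annotation places Gm26982 and Gm44033 on the opposite strand over Ghrl, and the kit does not mark strand, so reads of these genes cannot be told apart from those of Ghrl.

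Sst, Neurod1 and Gip were higher in each AC H6 library than in any isotype library, but did not pass the threshold. Sst (chr16:23889573-23890958, minus strand) had 46.7, 40.6 and 39.3 CPM after AC H6, against 38.2, 32.0 and 37.3 CPM after isotype. The lowest AC H6 library lay just above the highest isotype library. Its log2 fold change was 0.24 ± 0.09, with an adjusted p of 0.0619 by edgeR. This value moved to the other side of the threshold with a stricter filter on low counts (adjusted p = 0.0495) or an acinar score as a covariate (0.00526). Neurod1 (chr2:79452521-79456751, minus strand) had 4.33, 4.07 and 4.29 CPM after AC H6, against 3.55, 3.72 and 3.64 CPM after isotype. Its log2 fold change was 0.22 ± 0.11, with an adjusted p of 0.146 by edgeR. Neurod1 overlaps Cerkl on the same strand and Gm26755 on the other, so a part of its reads may belong to these genes. Gip (chr11:96024545-96030831, plus strand), the hormone of K cells, had 65.3, 60.0 and 60.9 CPM after AC H6, against 58.2, 56.2 and 58.2 CPM after isotype. Its log2 fold change was the lowest of the 10, at 0.11 ± 0.05, with an adjusted p of 0.142 by edgeR.

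Cck and Gcg overlapped between the groups. Cck (chr9:121489824-121495694, minus strand), the hormone of I cells, had 48.1, 40.3 and 39.0 CPM after AC H6, against 43.9, 35.8 and 37.3 CPM after isotype. In both groups library 1 was the highest. The log2 fold change of Cck was 0.12 ± 0.10, with an adjusted p of 0.355 by edgeR. Gcg (chr2:62474530-62483650, minus strand), whose precursor yields GLP-1 and GLP-2 in gut and glucagon in islets, had 4.02, 3.41 and 3.89 CPM after AC H6, against 3.25, 3.49 and 3.16 CPM after isotype. Its highest isotype value was that of library 2, the library with 162 counts of Ins2. The same library was the highest isotype library for Chgb, Chga, Pyy and Neurod1, but not for Sst, Cck, Sct, Gip or Ghrl. The part of islet RNA in these values was not tested. The log2 fold change of Gcg was 0.19 ± 0.12, with an adjusted p of 0.249 by edgeR, on 74 to 166 counts per library.

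**Figure D2:**
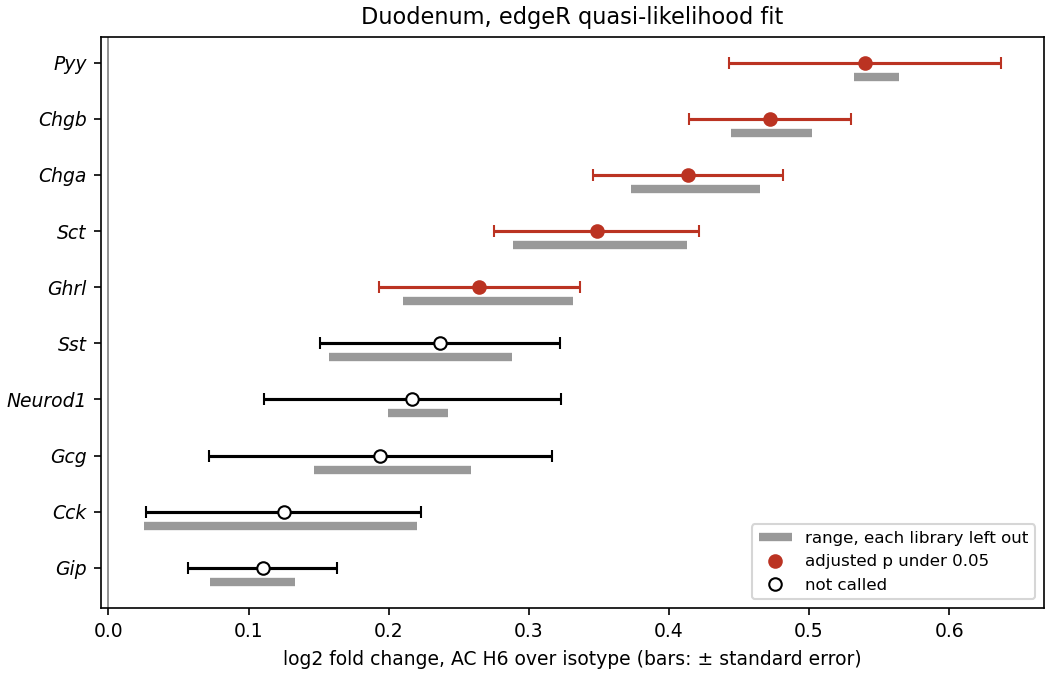
Log2 fold change of each member in duodenum, AC H6 over isotype, with its standard error; filled red points have an adjusted p under 0.05 by edgeR and open points do not, and grey bars give the range when each library is left out in turn. Every estimate lies to the right of 0, from 0.11 for Gip to 0.54 for Pyy, and the grey bar of Cck comes closest to 0, at 0.03.

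The members kept their direction when any 1 library was left out. Chga, Chgb, Pyy and Sct stayed called in each of the 6 such fits, with log2 fold changes of 0.37 to 0.47 for Chga, 0.44 to 0.50 for Chgb, 0.53 to 0.56 for Pyy and 0.29 to 0.41 for Sct. When isotype library 2 and AC H6 library 3, which held the most acinar RNA, were left out together, 5 members were called. With the stomach score as a covariate 4 members were called. A score of intestinal epithelium genes as a covariate left 0 members and 50 genes called. The log2 fold changes in that fit were 0.42 ± 0.23 for Chga, 0.55 ± 0.19 for Chgb and 0.42 ± 0.24 for Sct. Pyy had 0.51 ± 0.32 and Ghrl -0.03 ± 0.21. Those of Chga, Chgb, Sct and Pyy were about as large as without the score, and their standard errors were larger. Of the members not called without the score, Sst had 0.55 ± 0.26, Cck 0.60 ± 0.28 and Gip 0.22 ± 0.18. Gcg had 0.36 ± 0.40 and Neurod1 0.24 ± 0.35. The estimates of Sst, Cck, Gip and Gcg were larger than without the score. The share of the variance of the score that the treatment accounts for was 0.90, so the treatment and this score cannot be told apart in 6 libraries.

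The 10 genes together had 755, 713 and 734 CPM in the AC H6 libraries, against 575, 574 and 552 CPM in the isotype libraries. Chgb contributed 51.9%, 53.2% and 55.6% of the counts of the 10 genes after AC H6, against 49.2%, 51.2% and 49.6% after isotype. Of the ratios of Chgb, Sct, Cck and Gip to Chga, only that of Gip did not overlap between the groups. Gip counts divided by Chga counts gave 0.647, 0.645 and 0.632 after AC H6, against 0.808, 0.726 and 0.848 after isotype, without overlap. The quotient of Sct and Chga overlapped, with 0.483, 0.527 and 0.450 after AC H6 and 0.558, 0.477 and 0.494 after isotype. That of Chgb and Chga was 3.89 to 4.24 after AC H6 and 3.80 to 3.99 after isotype. For Cck and Chga it was 0.405 to 0.477 after AC H6 and 0.463 to 0.610 after isotype. Differences between the fold changes of members were not tested.

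Levels can be compared between genes only per length. Per kilobase of exon, Chgb was the highest member, at 144 CPM per kb after AC H6 and 103 CPM per kb after isotype. Gip followed with 90.3 CPM per kb after AC H6 and 83.7 after isotype, then Sct with 72.9 after AC H6 and 57.3 after isotype, and Sst with 58.5 after AC H6 and 49.7 after isotype. Chga, Ghrl and Cck lay close together, at 35.1, 33.9 and 32.5 CPM per kb after AC H6 and at 26.4, 28.2 and 29.9 CPM per kb after isotype. The isotype libraries of Sct and Sst overlapped, as did those of Cck and Ghrl and those of Ghrl and Chga, so the order within these pairs is not larger than their spread. Far lower came Pyy with 9.16 CPM per kb after AC H6 and 6.30 after isotype, Gcg with 2.53 after AC H6 and 2.21 after isotype, and Neurod1 with 1.55 after AC H6 and 1.33 after isotype.

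**Figure D3:**
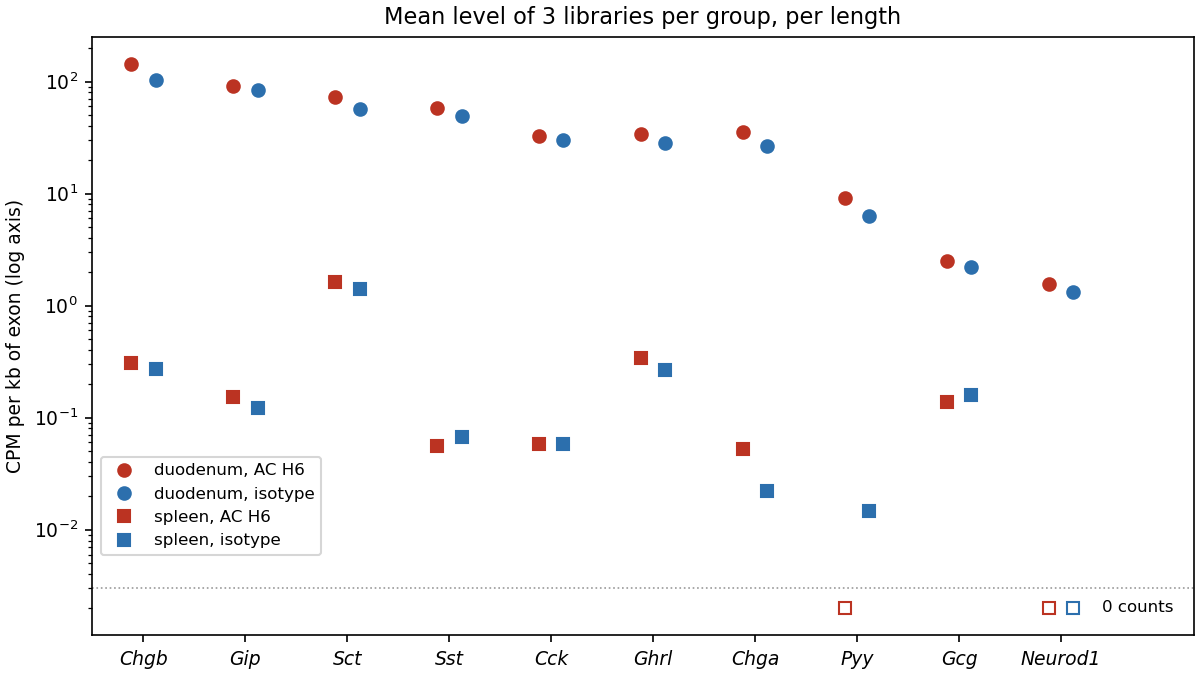
Mean level of 3 libraries in CPM per kilobase of exon (log axis) for each member, AC H6 in red and isotype in blue, with circles for duodenum and squares for spleen; open squares under the dotted line stand for groups with 0 counts. Duodenum levels lie above spleen levels for every gene, and in duodenum they run from 1.33 CPM per kb for Neurod1 to 144 CPM per kb for Chgb.

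The spleen is a tissue without enteroendocrine cells, and the members were low there. Neurod1 had 0 counts in all 6 spleen libraries, which allows up to 0.0295 CPM over the AC H6 libraries and 0.0391 CPM over the isotype libraries (3 counts over the summed total, counting error only). Pyy had 0 counts after AC H6, which allows up to 0.0295 CPM, and 1 count in all after isotype. The lowest duodenum library of Chga was 324 times its highest spleen library, and this quotient was 284 for Gip, 269 for Sst, 266 for Chgb, 227 for Cck and 142 for Pyy, on CPM scaled within each tissue. It was lower for Ghrl (43.4), Sct (27.5) and Gcg (7.99).

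Only Chgb, Sct and Ghrl passed the filter on low counts in spleen, and none of these 3 was called by edgeR, at an unadjusted p under 0.05 or by DESeq2 either, against 3.98% of the 15270 genes tested there (2.06% higher and 1.92% lower). Sct had 0.945, 0.965 and 1.23 CPM in the AC H6 spleens, against 0.726, 1.05 and 0.951 CPM in the isotype spleens. Its log2 fold change was 0.13 ± 0.21, with an adjusted p of 0.808 by edgeR. Chgb had 0.866, 0.682 and 0.997 CPM after AC H6, against 0.594, 0.606 and 1.03 CPM after isotype, and a log2 fold change of 0.15 ± 0.28 with an adjusted p of 0.760 by edgeR. Ghrl had 0.341, 0.659 and 0.0950 CPM after AC H6, against 0.330, 0.138 and 0.396 CPM after isotype, and a log2 fold change of 0.61 ± 0.63 with an adjusted p of 0.551 by edgeR. The groups overlapped for all 3 genes. Whether the change of a member differed between the tissues was not tested.

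Genes of the machinery around the hormones were counted in lists. Of 19 tested genes of secretory granules and exocytosis, 6 were higher, 0 lower and 13 not called, with a median log2 fold change of 0.26 beside 0.01 over all genes tested, of which 18.5% were higher and 16.1% lower. Syt13, a synaptotagmin, had 6.34, 6.12 and 6.30 CPM after AC H6, against 4.12, 4.05 and 4.48 CPM after isotype (log2 fold change 0.57 ± 0.10, adjusted p of 0.00331 by edgeR). Rab3d, a small GTPase of granules, rose by 0.51 ± 0.11, Ptprn, a membrane protein of dense-core granules, by 0.41 ± 0.11, and Fxyd3, an ion transport regulator, by 0.58 ± 0.19 on the log2 scale. The groups of Fxyd3 overlapped, with 40.9 CPM in AC H6 library 3 and 42.7 CPM in isotype library 2. All 19 log2 fold changes of this list were above 0, against 51.2% of those of all genes tested. Scg2 and Scg3, further granins, had log2 fold changes of 0.11 ± 0.09 and 0.33 ± 0.12 and were not called by edgeR (adjusted p of 0.369 and 0.0641), and both were chosen for mention after their values were seen. The count of 6 went down to 2 without isotype library 3, AC H6 library 1 or AC H6 library 2. Ptprn was then not called (adjusted p of 0.0610 to 0.0800 by edgeR, and 0.0737 without isotype library 2), nor was Fxyd3 (0.0840 to 0.131, and 0.0890 without isotype library 1).

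Of 8 tested genes that process prohormones, 3 were higher, 1 was lower and 4 were not called, with a median log2 fold change of 0.24. This stands beside 18.5% higher and 16.1% lower over all genes tested. Pam, which amidates the end of peptides such as secretin and PYY, had 114, 121 and 99.6 CPM after AC H6, against 66.1, 75.2 and 80.7 CPM after isotype, a log2 fold change of 0.59 ± 0.10 (adjusted p of 0.00276 by edgeR). Scg5, the partner of the convertase PC2, rose by 0.49 ± 0.14, and Cpe, carboxypeptidase E, by 0.21 ± 0.07 on the log2 scale. Pcsk5, a convertase also expressed by enterocytes, fell by 0.30 on the log2 scale, to 174 ± 4.28 CPM after AC H6, against 214 ± 11.8 CPM after isotype. Pcsk1, the convertase that cuts proglucagon to GLP-1, was outside the rule for named genes and had 8.82, 9.68 and 10.9 CPM after AC H6, against 9.91, 9.79 and 8.25 CPM after isotype. Its groups overlapped, with a log2 fold change of 0.08 ± 0.11 (adjusted p of 0.622 by edgeR). The count of 4 called went down to 2 without isotype library 2 or any 1 of the AC H6 libraries. Cpe was then not called (adjusted p of 0.0600 to 0.108 by edgeR, and 0.0838 without isotype library 3), nor was Scg5 (0.0516 to 0.0939, and 0.0780 without isotype library 1).

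The transcription factors of the lineage went in both directions, as did all genes tested. Of 22 tested, 4 were higher, 2 lower and 16 not called, beside 18.5% higher and 16.1% lower over all genes. Their median log2 fold change was 0.05. Neurog3, which starts the endocrine fate, had 4.56, 4.20 and 5.65 CPM after AC H6, against 3.11, 2.90 and 2.86 CPM after isotype. The groups did not overlap, and its log2 fold change was 0.71 ± 0.14 (adjusted p of 0.00654 by edgeR). Sox4, which acts in endocrine and tuft progenitors, had 34.8, 35.8 and 34.7 CPM after AC H6, against 12.2, 12.2 and 10.8 CPM after isotype, the largest change of the list, with a log2 fold change of 1.58 ± 0.06 (adjusted p of 3.04e-06 by edgeR). Foxa1, a forkhead factor also present in gastric and Brunner gland epithelium, rose by 0.77 ± 0.15 on the log2 scale. Mlxipl, a glucose-responsive factor that enterocytes also express, fell to 120 ± 12.5 CPM after AC H6, against 148 ± 4.03 CPM after isotype. Without isotype library 1 or AC H6 library 1, 3 factors were called in place of 6. Mlxipl was not called without any 1 of the isotype libraries or AC H6 library 1 (adjusted p of 0.0507 to 0.0731 by edgeR).

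Of 10 tested genes of other gut peptides, 6 were higher, 1 lower and 3 not called, with a median log2 fold change of 0.51. Among the higher genes were Vip, which is also in the enteric neuron and glia list, and Tac1, also in the enterochromaffin list. The shares over all genes tested were 18.5% higher and 16.1% lower. Guca2b, the gene of uroguanylin, which regulates salt and water secretion, had 607, 603 and 627 CPM after AC H6, against 292, 274 and 289 CPM after isotype (log2 fold change 1.10 ± 0.05, adjusted p of 7.05e-06 by edgeR). Guca2a, the gene of guanylin, had 79.0, 76.2 and 95.0 CPM after AC H6, against 21.3, 16.2 and 19.4 CPM after isotype (log2 fold change 2.14 ± 0.12, adjusted p of 1.21e-05 by edgeR). For both genes the groups lay apart by more than the spread within either. Cartpt, a peptide also made by enteric neurons, rose by 0.87 ± 0.18 on the log2 scale. Retnlb, a secreted product of goblet cells, had 0, 1 and 4 counts after AC H6, against 14, 18 and 25 counts after isotype, and was called lower (adjusted p of 0.00155 by edgeR). Its fitted log2 fold change of -3.79 depends on the prior count and is no bound.

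The 8 tested genes of the enterochromaffin serotonin list gave 1 higher, 2 lower and 5 not called, with a median log2 fold change of -0.02. Over all genes tested, 18.5% were higher and 16.1% lower. The 2 lower genes, Slc6a4 and Maoa, serve the uptake and breakdown of serotonin and not its making. Tac1, the gene of substance P, which enteric neurons also make, had 7.68, 7.03 and 9.05 CPM after AC H6, against 5.57, 5.57 and 5.59 CPM after isotype (log2 fold change 0.51 ± 0.11, adjusted p of 0.00989 by edgeR). Slc6a4, the serotonin transporter of enterocytes, fell to 42.3 ± 0.805 CPM after AC H6, against 54.6 ± 2.15 CPM after isotype. Maoa, which breaks serotonin down, had 246, 248 and 264 CPM after AC H6, against 506, 264 and 488 CPM after isotype, so that isotype library 2 lay at the AC H6 level (log2 fold change -0.73 ± 0.21, adjusted p of 0.0274 by edgeR). It was not called without any 1 library other than isotype library 2 (adjusted p of 0.0556 to 0.0906 by edgeR). Ddc, Slc18a1, Slc18a2, Lmx1a and Tph1, the 5 genes not called, lay outside the rule for named genes. Tph1 encodes the enzyme that makes serotonin in the gut. It had 23.5, 25.6 and 27.1 CPM after AC H6, against 28.7, 23.5 and 24.9 CPM after isotype, with a log2 fold change of -0.01 ± 0.09 (adjusted p of 0.928 by edgeR).

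Of 13 tested receptors, channels and transporters of nutrient sensing, 3 were higher, 3 lower and 7 not called, with a median log2 fold change of 0.06. All genes tested gave 18.5% higher and 16.1% lower. Abcc8, a subunit of the ATP-sensitive potassium channel, had 4.36, 4.51 and 4.03 CPM after AC H6, against 1.36, 1.79 and 1.62 CPM after isotype (log2 fold change 1.42 ± 0.14, adjusted p of 2.67e-04 by edgeR). Sstr5, a somatostatin receptor, had a level near 1 CPM and rose by 0.81 ± 0.22 on the log2 scale. Slc5a1, the sodium-glucose cotransporter, fell to 2806 ± 221 CPM after AC H6, against 3601 ± 33.1 CPM after isotype. Slc15a1, the peptide transporter, fell to 145 ± 7.07 CPM after AC H6, against 212 ± 28.8 CPM after isotype. Both transporters are also enterocyte genes. Trpa1, a channel and the other lower gene of the list, lay outside the rule for named genes. It had 6.60, 7.60 and 7.34 CPM after AC H6, against 8.29, 9.03 and 8.92 CPM after isotype. Its log2 fold change was -0.29 ± 0.09, with an adjusted p of 0.0411 by edgeR. Without isotype library 3 or any 1 of the AC H6 libraries, 3 genes were called in place of 6, and Sstr5 was not among them (adjusted p of 0.0514 to 0.0777 by edgeR).

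Of 14 tested genes that receive or degrade the hormones, 1 was higher, 2 lower and 11 not called, with a median log2 fold change of 0.04. The background over all genes tested was 18.5% higher and 16.1% lower. Cckar, the cholecystokinin receptor, had 2.58, 2.90 and 6.05 CPM after AC H6, against 1.23, 1.99 and 1.45 CPM after isotype (log2 fold change 1.29 ± 0.36, adjusted p of 0.0236 by edgeR). Its highest value was that of AC H6 library 3, the library with the most acinar RNA. Dpp4, which inactivates GIP and GLP-1, had 148, 177 and 186 CPM after AC H6, against 248, 219 and 256 CPM after isotype, and fell by 0.50 on the log2 scale. Mme, a peptidase of the brush border, fell by 0.57 on the log2 scale, to 477 ± 45.7 CPM after AC H6, against 709 ± 137 CPM after isotype. Cckar was not called without isotype library 1 (adjusted p = 0.0677 by edgeR) or 3 (0.0740), and Mme was not called without AC H6 library 1 (0.0534).

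**Figure D4:**
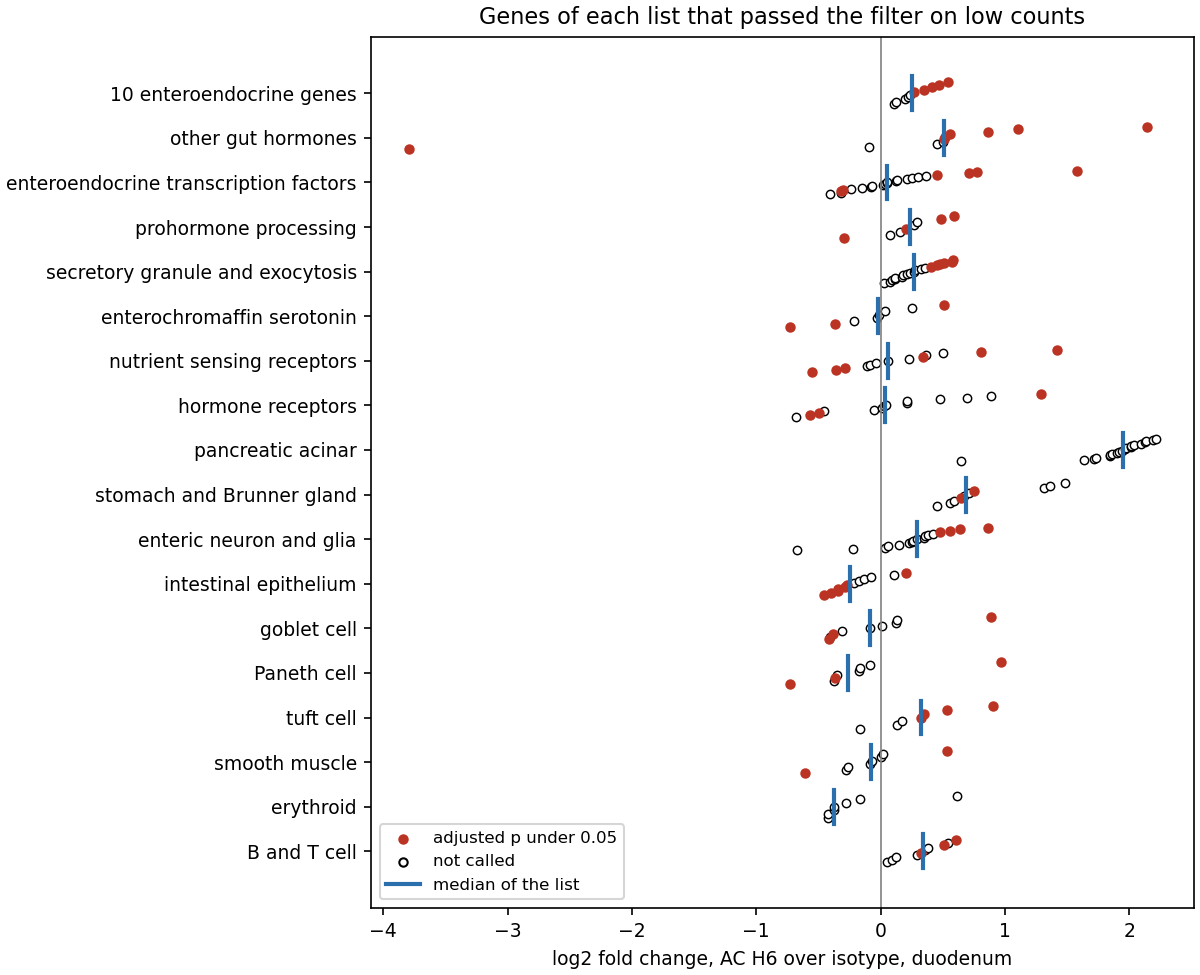
Log2 fold change in duodenum, AC H6 over isotype, of each gene that passed the filter on low counts, by list; red points have an adjusted p under 0.05 by edgeR, open points do not, and blue bars are the median of a list. The enteroendocrine members lie from 0.11 to 0.54, the secretory granule genes all lie above 0, and the transcription factors spread on both sides of 0 around a median of 0.05.

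Some markers of other cells were called too, as were 34.6% of all genes tested (18.5% higher and 16.1% lower). Of 12 intestinal epithelium genes, 1 was higher, 6 lower and 5 not called, with a median log2 fold change of -0.25. Their summed level was 10229, 9777 and 10476 CPM after AC H6, against 12378, 11375 and 11994 CPM after isotype, without overlap. Cldn7, Epcam, Vil1 and Lgals4 fell by 0.40, 0.34, 0.29 and 0.27 on the log2 scale. Without AC H6 library 3, 3 of the 12 genes were called, and Vil1 (adjusted p = 0.0711 by edgeR) and Lgals4 (0.0672) were not. The summed level of the 10 enteroendocrine genes went the other way, and the part of the epithelial share in this was not tested beyond the covariate fit given above.

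Of 17 enteric neuron and glia genes, all of them tested and none at 0 in every library, 4 were higher, 0 lower and 13 not called. This count stands beside 18.5% higher and 16.1% lower over all genes tested. The 17 genes had a median log2 fold change of 0.29. Their summed level was 82.4, 75.0 and 83.2 CPM after AC H6, against 71.7, 53.7 and 63.6 CPM after isotype. The sums did not overlap, but without Vip they did, at 51.0, 48.2 and 47.7 CPM after AC H6, against 48.2, 36.0 and 40.9 CPM after isotype. Vip, a neuropeptide, had 31.4, 26.7 and 35.6 CPM after AC H6, against 23.6, 17.7 and 22.7 CPM after isotype (log2 fold change 0.56 ± 0.13, adjusted p of 0.0112 by edgeR). Ret, a receptor of enteric neurons, rose by 0.48 ± 0.09, and the glial genes Gfap and Sox10 rose by 0.86 ± 0.20 and 0.63 ± 0.20 on the log2 scale. Uchl1, a neuronal enzyme, had a log2 fold change of 0.23 ± 0.11 and was not called by edgeR (adjusted p of 0.144). Sox10 was not called without any 1 library other than isotype library 3 (adjusted p of 0.0527 to 0.111 by edgeR), and 2 of the 17 genes were called without isotype library 2 and AC H6 library 3 together. The part of neuronal RNA in the changes of Chgb, Chga, Sst and Tac1 was not tested.

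Of 10 tested stomach and Brunner gland genes, 2 were higher, 0 lower and 8 not called, with a median log2 fold change of 0.69. For this and the next lists the shares over all genes tested were 18.5% higher and 16.1% lower. Tff2, a trefoil peptide of Brunner glands and gastric neck cells, had 10163, 10682 and 7009 CPM after AC H6, against 3756, 6872 and 5914 CPM after isotype (adjusted p of 0.0300 by edgeR). Gkn3 was called higher, with overlapping groups and a log2 fold change of 0.64 ± 0.21, and the mucin gene Muc6 was not called, with 0.59 ± 0.23. Neither Tff2 nor Gkn3 stayed called without isotype library 3, AC H6 library 1 or AC H6 library 2 (adjusted p of 0.0618 to 0.145 by edgeR), and Gkn3 did not without isotype library 1 (0.0916). Of 20 acinar genes none was called by edgeR or DESeq2, 1 had an unadjusted p under 0.05, with a median log2 fold change of 1.95 that rests on AC H6 library 3: Amy2a5 had 9.49, 2162 and 27002 CPM after AC H6, against 11.8, 6568 and 79.3 CPM after isotype. Ctrb1 and Pnlip, a protease and a lipase of pancreas, followed the same libraries, with 1160 and 964 CPM in AC H6 library 3. The acinar genes with the smallest p were Rnase1 and Ctrc, with log2 fold changes of 1.84 ± 0.80 and 1.94 ± 1.15. Without isotype library 2, Rnase1 was called higher (adjusted p = 0.0358 by edgeR), with 3 acinar genes called in all. Of 10 islet genes only 3 passed the filter, and none was called by edgeR or DESeq2 or had an unadjusted p under 0.05. Iapp had a log2 fold change of 0.34 and Ucn3 one of -0.10. Without isotype library 2, Iapp was called higher (adjusted p = 0.0494 by edgeR).

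**Figure D5:**
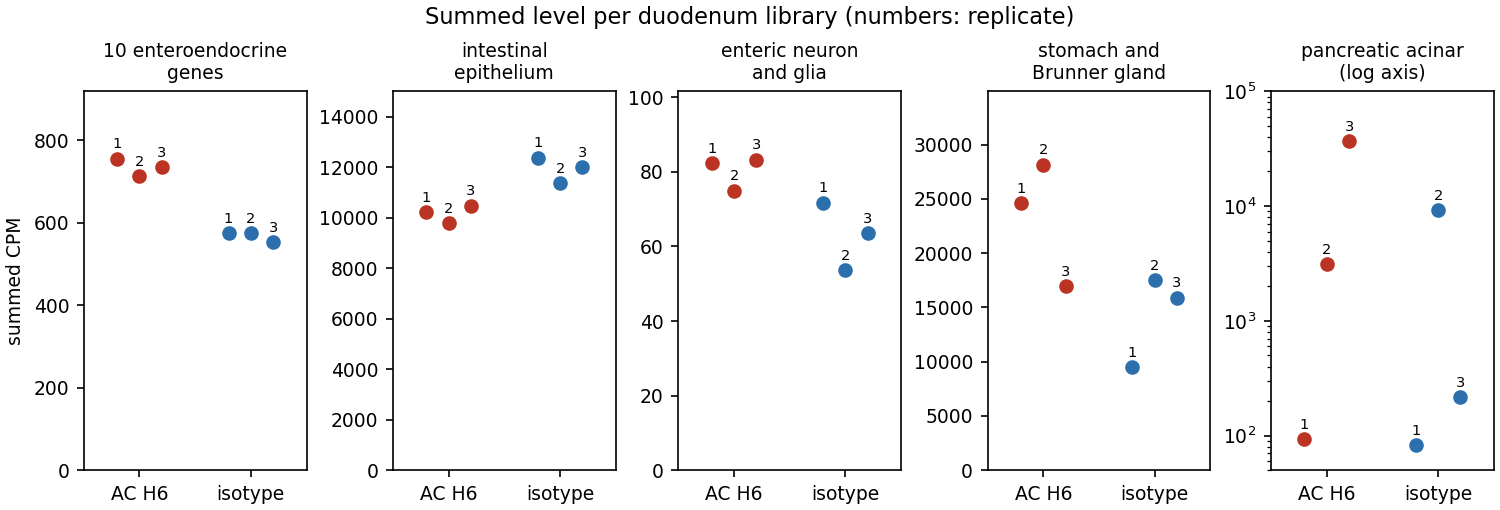
Summed CPM per duodenum library of the 10 enteroendocrine genes and of 4 marker lists, AC H6 in red and isotype in blue, with the library number above each point (the acinar axis is logarithmic and does not start at 0, the others start at 0). The enteroendocrine sum lies at 713 to 755 CPM after AC H6 and 552 to 575 CPM after isotype, the epithelium sum is lower after AC H6, and the acinar sums follow single libraries.

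The genes whose profile over the 6 duodenum libraries lay nearest to Chga were Lgmn, Zmat3, Eng, Bcl3 and Zc3h7b, by the root mean square difference of centred log2 CPM among 12982 genes. The distance was 0.02 for Lgmn and 0.03 for Zc3h7b. The gene nearest to each of the others was Gusb for Chgb, Bckdhb for Pyy, Cxx1b for Sct, Ptov1 for Ghrl, Ccdc85b for Sst, Ddx39b for Neurod1, Polr2e for Gip, Chrna3 for Cck and Clec14a for Gcg, at distances of 0.01 to 0.04. No member was among the candidates, and these likenesses rest on 6 libraries in 2 treatment groups.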

How the data were processed

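RNA of 12 libraries was sequenced, 3 from each of 4 groups, which came from the tissue and treatment labels, with replicate numbers from the titles. Trizol extraction, column clean-up and an Illumina TruSeq kit without strand marking are given per the labels' protocols. The tools were bcl2fastq 2.19, Trimmomatic, STAR 2.3 and edgeR, with the mouse build mm10, per the submitters' processing notes. A counter or gene annotation is not given in the sources used here. Per library, the authors deposited whole-number read counts per gene, in a table of 23329 rows, and these counts keep reads with several matches per the file headers. Tables were joined by gene symbol, because 2 of them list the rows in another order.

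From these counts, edgeR 4.0.16 in R 4.3.3 gave scaling by trimmed means of M values, CPM and the quasi-likelihood test after filterByExpr, on the 6 libraries of a tissue without covariates. A gene is called where its p, adjusted after Benjamini and Hochberg across every gene tested in the tissue, is under 0.05. The standard error is the log2 fold change divided by the square root of F, a quotient that becomes unstable near 0. Alternatives were DESeq2 1.42.0 and its size factors, limma-voom (limma 3.58.1), no filter, a stricter filter (10 counts in each library of a group and a mean log2 CPM of 1), a joint fit of the 12 libraries, a block for the replicate number, leaving out the genes of haemoglobin, Rn45s, Lars2 and amylase 2, acinar and epithelium scores as covariates, and each library left out. The stomach score was the mean log2 CPM of Muc5ac, Tff1, Gkn1, Gkn2, Gif and Gast, not of the whole stomach and Brunner gland list. This score and the fit without 2 libraries together were added after the data had been seen. Libraries of a group differed by more than sampling noise (chi-square per degree of freedom of 25.9 or more), so none was counted as a repeat. The share of counts on Rn45s was 7.56% in isotype library 1 of duodenum and at most 1.18% in the rest of that tissue.

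The members, the 18 gene lists and the tests were chosen with earlier results of these data known. Named genes were the 10 members, up to 4 called genes of smallest p per list (up to 2 of smallest p where none was called), the up to 3 most abundant islet, acinar, stomach and neuron markers, and the nearest genes by profile (5 for Chga, 1 for each other member, mean log2 CPM of at least 1, prior count of 2). Of 230 list entries 229 were found, 2 by an older symbol, and Muc2 was not analysed here. A few genes that this rule would name are not reported here. Gene positions and exon lengths come from GENCODE M21 (GRCm38, the same as mm10), and upstream sequences those of RefSeq on GRCm38.p6, from the window nearest to the GENCODE start, with all 10 members matched.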

Additional observations from a re-analysis of the deposited data

How the results depend on the processing

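In duodenum the direction of Chga, Chgb, Pyy, Sct, Sst, Cck, Gip, Gcg and Neurod1 was the same in all 18 alternatives, and that of Ghrl in 17. Chga, Chgb, Pyy and Sct stayed called in 17 of 18, Ghrl in 12 and Sst became called in 3. With the epithelium score as a covariate, 50 genes and 0 members were called, and Ghrl had a log2 fold change of -0.031. Chga had 0.42, Chgb 0.55, Sct 0.42 and Pyy 0.51, with larger standard errors. In that fit Sst had 0.55, Cck 0.60, Gip 0.22, Gcg 0.36 and Neurod1 0.24. The other alternatives called 3979 to 5520 genes and 4 to 6 members. Leaving out each library called 3979 to 4753 genes and 4 to 5 members. With the replicate block, 5421 genes and 6 members were called (Sst at an adjusted p of 0.0311), and in spleen 1 gene. Libraries of the same number did not deviate together in each pair (r of 0.40, 0.24 and -0.20 in duodenum, 0.26, -0.13 and -0.031 in spleen), so the numbers were not taken to pair the samples. With 1 fit of all 12 libraries the call of Ghrl was lost (adjusted p = 0.261).

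In spleen 0 members were called in every alternative that was run. The stricter filter left none of them to test, and without AC H6 library 2 the filter left 2. The count of all spleen genes called was 608, against 1356 with DESeq2, 1390 in 1 fit of all libraries and 14 to 1132 with each library left out (14 without isotype library 1, 30 without AC H6 library 3, 68 without isotype library 2, 76 without AC H6 library 1, 104 without isotype library 3 and 1132 without AC H6 library 2). Chgb in spleen ran from -0.039 (without isotype library 2) to 0.46 with each library left out. The cause of these shifts was not tested.

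Among the other named genes, 26 log2 fold changes changed sign. With the epithelium score these were Foxa1 (-0.46), Pam (-0.012), Rab3d (-0.20), Fxyd3 (-0.84), Maoa (0.29), Iapp (-0.66), Amy2a5 (-6.56), Ctrb1 (-5.19), Pnlip (-4.41), Tff2 (-0.99), Gkn3 (-1.01), Muc6 (-1.34), Epcam (0.022), Zg16 (0.18) and Ptov1 (-0.050). With the acinar score they were Amy2a5 (-0.013), Ctrb1 (-0.65) and Pnlip (-0.024). With each library left out, Ctrc ran from -0.037 to 4.18, Amy2a5 from -1.03 to 7.74, Ctrb1 from -1.25 to 5.76 and Pnlip from -0.88 to 7.06, each lowest without AC H6 library 3, while Hbb-b1 ran from -0.66 to 0.089, Ucn3 from -0.19 to 0.012 and Chrna3 from -0.012 to 0.15. Hbb-b1 had 0.22 without isotype library 2 and AC H6 library 3 together. Gcg, Pyy and Neurod1 rest on 74 to 248 counts per library.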

Other observations

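Genes of other secretory cells of the epithelium did not share one direction. Their counts stand beside 18.5% higher and 16.1% lower over all genes tested. Of 7 tested tuft cell genes, 4 were higher after AC H6, 0 lower and 3 not called, with a median log2 fold change of 0.32, and their summed level was 98.6, 97.8 and 93.0 CPM after AC H6, against 88.0, 83.0 and 83.3 CPM after isotype. Pou2f3, the tuft cell factor, rose by 0.53 ± 0.16, Gfi1b by 0.90 ± 0.21 and Alox5ap, a leukotriene synthesis protein, by 0.34 ± 0.08 on the log2 scale. Of 9 genes listed for goblet cells, 1 was higher, 2 were lower and 6 not called. The row named Clca3, which carries the goblet cell gene now called Clca1, fell to 1199 ± 130 CPM after AC H6, against 1594 ± 31.9 CPM after isotype. Zg16 fell to 1199 ± 133 CPM after AC H6, against 1568 ± 206 CPM after isotype. The 1 higher was the row named Clca1, a gene now called Clca3a1, which rose by 0.88 ± 0.09 on the log2 scale. That row was matched by its symbol and is not the goblet cell gene. In spleen it had 184 CPM after AC H6 and 168 CPM after isotype, against 18.4 and 9.94 CPM in duodenum. Of 8 Paneth cell genes, 1 was higher, 2 lower and 5 not called. The antimicrobial gene Ang4 fell to 66.7 ± 14.9 CPM after AC H6, against 111 ± 9.30 CPM after isotype, Itln1 fell to 571 ± 66.8 CPM after AC H6, against 738 ± 84.2 CPM after isotype, and Mmp7, the protease that activates defensins, rose by 0.97 ± 0.20 on the log2 scale. Calls that were lost when 1 library was left out were those of Pou2f3 (adjusted p of 0.0519 to 0.0994 by edgeR without any 1 library other than isotype library 1), Zg16 (0.0687 to 0.0856 without isotype library 1 or 3 or AC H6 library 1 or 2) and Itln1 (0.0720 to 0.0918 without isotype library 2 or 3 or AC H6 library 1 or 2). Of the goblet cell genes, 5 were called without isotype library 2 or AC H6 library 3.

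Of 10 B and T cell genes, 3 were higher, 0 lower and 7 not called, beside 18.5% higher and 16.1% lower over all genes tested. Ptprc, Cd4 and Cd3e rose by 0.61 ± 0.09, 0.51 ± 0.09 and 0.33 ± 0.11 on the log2 scale. Cd3e was not called with any 1 library left out (adjusted p of 0.0707 to 0.134 by edgeR). Of 8 smooth muscle genes, Des rose by 0.53 ± 0.09 on the log2 scale, Actg2 fell to 65.2 ± 9.23 CPM after AC H6, against 99.5 ± 0.998 CPM after isotype, and 6 were not called. Without AC H6 library 1, 4 smooth muscle genes were called. Of 7 erythroid genes none was called by edgeR or DESeq2, 1 had an unadjusted p under 0.05, and Hbb-b1 had a log2 fold change of -0.43 ± 0.30.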
